A study of Mus musculus with 28 samples.

Results

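The genes described here are 44 cell cycle and proliferation genes, chosen by name for what their proteins do. The choice was made with earlier results of these data known. They were read as 2 groups. The first holds 21 S-phase and replication genes and the second 23 genes of G2 and mitosis. All 44 were found among the 22919 genes listed in each comparison table, all were among the 21192 genes with a test, and all passed the filter of a mean of at least 0.1 FPKM.

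The study labelled nascent RNA in dissociated mouse forebrain cultures of neurons, astrocytes and oligodendrocyte precursor cells, from embryos of the outbred CD1 strain at embryonic day 18. Every culture was infected on day in vitro 14 with a lentivirus carrying an shRNA, either a control shRNA (shCtrl) or one against Rai1 (shRai1), a chromatin-associated regulator of transcription, so that no group was free of virus. On day 17 the cultures received water as vehicle, 1 µM tetrodotoxin (TTX, a sodium channel blocker that stops action potentials) or 20 µM bicuculline (BIC, a blocker of inhibitory GABA-A receptors that raises network activity) for 4 hours, with 2 mM bromouridine for the last 20 minutes. The 16 libraries form 6 groups, shCtrl with vehicle (2 libraries), TTX (3) and BIC (2), and shRai1 with vehicle, TTX and BIC (3 each). By their titles, shCtrl vehicle holds replicates 1 and 2, shCtrl BIC replicates 2 and 3, and each other group replicates 1 to 3. Comparisons with shCtrl vehicle or shCtrl BIC thus set unlike replicates side by side. Each library was a biological replicate made from the cortices and hippocampi of a pool of embryos with the sexes balanced, and the promoter that drives the shRNAs is not given in the labels, so the cell types that express them are not known here.

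A dividing cell copies its DNA in S phase and separates the copies in mitosis, and 2 waves of transcription serve these steps. E2F factors switch on S-phase genes such as cyclin E, the MCM helicase and the enzymes that make deoxynucleotides at the end of G1, and complexes of MuvB proteins with B-Myb and FOXM1 switch on cyclin B, Cdk1 and the spindle genes in G2, through promoter elements named CHR and CCAAT. Neurons in such cultures have left the cell cycle, whereas oligodendrocyte precursors, astrocytes and residual neural progenitors can divide. In bulk RNA from a mixed culture, fewer cells of a dividing type and less RNA per cell cannot be told apart.

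The promoters of the mitotic genes Mki67, Top2a, Kif23 and Ccnb1 and of the S-phase gene Cdc6 are shown first. The 2 groups of members, read apart in the comparisons, also had different shares of these letters. Of the 44 genes, 37 had an entry in the RefSeq promoter table (assembly GRCm38.p6). Each line gives 166 bases, from 154 before the annotated start to 12 after it, 5′ to 3′ on the gene's strand. Capitals mark a match on either strand to CCAAT, to the CHR letters TTTGAA or TTTAAA, or to the E2F letters TTTCCCGC, TTTCGCGC or TTTGGCGC. Mki67 lies on the minus strand at chr7:135716368-135716533, Top2a on the minus strand at chr11:99024178-99024343, Kif23 on the minus strand at chr9:61946788-61946953, Ccnb1 on the minus strand at chr13:100786475-100786640 and Cdc6 on the plus strand at chr11:98907997-98908162.
Mki67: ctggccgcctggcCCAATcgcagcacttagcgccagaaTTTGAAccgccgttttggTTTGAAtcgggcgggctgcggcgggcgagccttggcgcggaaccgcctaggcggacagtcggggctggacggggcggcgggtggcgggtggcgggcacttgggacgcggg
Top2a: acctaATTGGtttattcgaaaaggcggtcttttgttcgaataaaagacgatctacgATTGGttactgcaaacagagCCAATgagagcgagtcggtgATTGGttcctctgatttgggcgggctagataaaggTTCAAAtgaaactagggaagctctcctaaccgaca
Kif23: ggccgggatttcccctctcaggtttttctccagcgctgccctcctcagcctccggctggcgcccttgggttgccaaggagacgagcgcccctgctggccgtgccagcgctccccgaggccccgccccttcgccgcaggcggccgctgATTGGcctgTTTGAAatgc
Ccnb1: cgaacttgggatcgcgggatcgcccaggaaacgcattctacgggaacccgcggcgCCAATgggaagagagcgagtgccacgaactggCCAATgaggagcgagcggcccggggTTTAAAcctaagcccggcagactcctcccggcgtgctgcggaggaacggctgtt
Cdc6: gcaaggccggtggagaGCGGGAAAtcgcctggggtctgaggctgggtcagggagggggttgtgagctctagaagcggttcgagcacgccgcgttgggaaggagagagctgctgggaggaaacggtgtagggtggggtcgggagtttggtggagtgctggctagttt

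The mitotic promoters Mki67, Top2a, Kif23 and Ccnb1 all held CCAAT and CHR letters, and the S-phase promoter Cdc6 held an E2F match and neither of these. Over the whole window of 300 bases (250 before the start and 50 after), CCAAT was found in 16 of 19 mitotic promoters and 12 of 18 S-phase promoters, against 37.9% of the promoters of all 27025 symbols. CHR letters were found in 16 of 19 mitotic and 6 of 18 S-phase promoters, against 27.8% of all. Both together stood in 15 of 19 mitotic promoters (78.9%) and 5 of 18 S-phase promoters (27.8%), against 10.9% of all. The E2F letters stood in 6 of 18 S-phase promoters and in 1 of 19 mitotic promoters, that of Cdk1, against 1.91% of all. Among S-phase genes called below, Pcna and Rrm1 held CCAAT alone in that window, Ccne1 CHR letters alone and Tyms none of these letters. CHR and E2F letters both begin with TTT but no full motif lies within another. A match describes the letters only.

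Most of the 44 genes were transcribed at low to moderate levels. In the authors' deposited table of FPKM, which gives 1 pooled value per condition with bounds, the median over the members in shCtrl vehicle was 2.54 FPKM (2.92 for S-phase and 2.32 for mitotic genes), below the median of 4.68 over all genes tested. The highest was Tyms (thymidylate synthase, which makes the thymidine precursor of DNA) at 163 FPKM (bounds 125 to 201), and the lowest was Chaf1b (a subunit of the histone chaperone CAF-1) at 0.425 FPKM (0 to 1.05). Among mitotic genes Ube2c (the ubiquitin-conjugating enzyme of the anaphase-promoting complex) was highest at 59.3 FPKM (43.6 to 74.9). The mean normalized count over all 16 libraries, the measure of depth behind each test, ranged from 17.3 to 1759 with a median of 73.8, against 107 over all genes tested, and 31 of 44 members reached 50. The pooled FPKM of 8 members (Ccne2, Mcm7, Gins2, Ccna2, Cdc20, Foxm1, Tpx2 and Nusap1) was listed for an interval that another gene shares, so their values may hold reads of a neighbour.

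**Figure D1:**
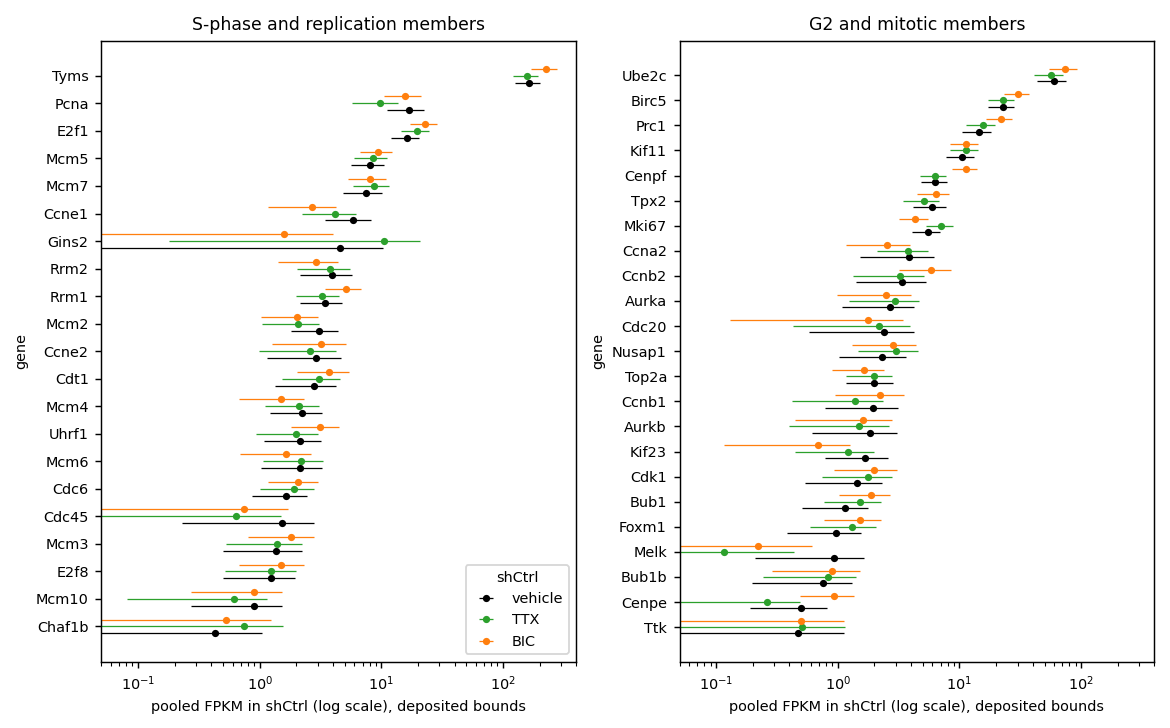
Pooled FPKM (log axis) of the 21 S-phase (left) and 23 mitotic members (right) in the shCtrl arm, in vehicle, TTX and BIC; points are the authors' pooled values, lines their bounds, and a bound under 0.05 is drawn at the axis limit. Tyms stands apart at 163 FPKM in vehicle, and most members lie between 0.5 and 20 FPKM with bounds that overlap between treatments.

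The signs of the mitotic genes under TTX differed between the 2 arms, though Mki67 alone passed the test of that difference. In shCtrl cultures all 23 had a change below 0 (median log2 change -0.25), where 48.7% of all genes did, and in shRai1 cultures 19 of 23 had a change above 0 (median 0.29), again where 48.7% of all genes did. By the test of single genes, 3 of 23 mitotic genes fell in shCtrl, where 14.9% of all genes fell, and 3 others rose in shRai1, where 13.7% of all genes rose, so neither count stands above the background. The arms share no library, and each has its own vehicle group. The S-phase genes had medians of -0.05 in shCtrl and 0.08 in shRai1, with 11 of 21 below 0 and 12 of 21 above 0, and the second of these medians was -0.02 over the 14 genes with a mean count of at least 50.

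In shCtrl under TTX, 4 of 44 members passed an adjusted p of 0.05 in the authors' deposited table (DESeq2, Wald test), all lower, while 26.7% of all genes with an adjusted p passed and 14.9% passed as lower. Kif23, the kinesin of the central spindle that brings about cytokinesis, stood at 1.68 FPKM in vehicle (0.787 to 2.58) and 1.21 in TTX (0.445 to 1.97), and fell by 0.68 on the log2 scale in the authors' deposited table (SE 0.220, adjusted p 0.0107). Ccnb1, cyclin B1, the partner of Cdk1 at entry into mitosis, stood at 1.95 FPKM in vehicle (0.785 to 3.11) and 1.39 in TTX (0.422 to 2.35), and fell by 0.70 in that deposited table (SE 0.259, adjusted p 0.0296). Melk, a kinase that peaks in mitosis, stood at 0.925 FPKM in vehicle (0.208 to 1.64) and 0.117 in TTX (0 to 0.438), and fell by 0.62 in the authors' deposited table (SE 0.225, adjusted p 0.0248). The bounds of the pooled values overlap between the conditions for each of these 3 genes. The fourth was Pcna, an S-phase gene described with its group. Mki67, which encodes the proliferation marker Ki-67, changed by -0.51 in the authors' deposited table (SE 0.235, adjusted p 0.0905) and did not pass, and its pooled FPKM went the other way, from 5.48 (4.10 to 6.87) in vehicle to 7.06 (5.34 to 8.77) in TTX. The pooled FPKM had the sign of the deposited change for 12 of 23 mitotic and 13 of 21 S-phase genes under TTX, so the levels do not show the shift that the fitted changes show, and the summed FPKM of the mitotic genes was 152.8 in vehicle and 151.6 in TTX.

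In shRai1 under TTX, 6 of 44 members passed in the authors' deposited table, 4 of them higher, against 30.5% of all genes (13.7% higher). The 3 mitotic genes all rose. Mki67 rose by 0.80 in the authors' deposited table (SE 0.219, DESeq2 adjusted p 0.00148), a 1.75-fold change. Top2a, the topoisomerase that untangles chromosomes in mitosis, rose by 0.55 in that deposited table (SE 0.173, adjusted p 0.00744). Tpx2, which activates Aurora A on the spindle, rose by 0.42 in the authors' deposited table (SE 0.149, adjusted p 0.0196). Kif23 (0.37, adjusted p 0.165), Ccnb1 (0.24, adjusted p 0.495) and Melk (0.27, adjusted p 0.350), which fell in shCtrl, had positive changes here that did not pass in the authors' deposited table. No mitotic gene was called in both arms, 0 of 3 calls in each, where 68.3% of all genes called in shCtrl were also called the same way in shRai1. Over the 23 genes the changes in the 2 arms had a Pearson correlation of -0.43, a description over genes that share their libraries and counts.

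**Figure D2:**
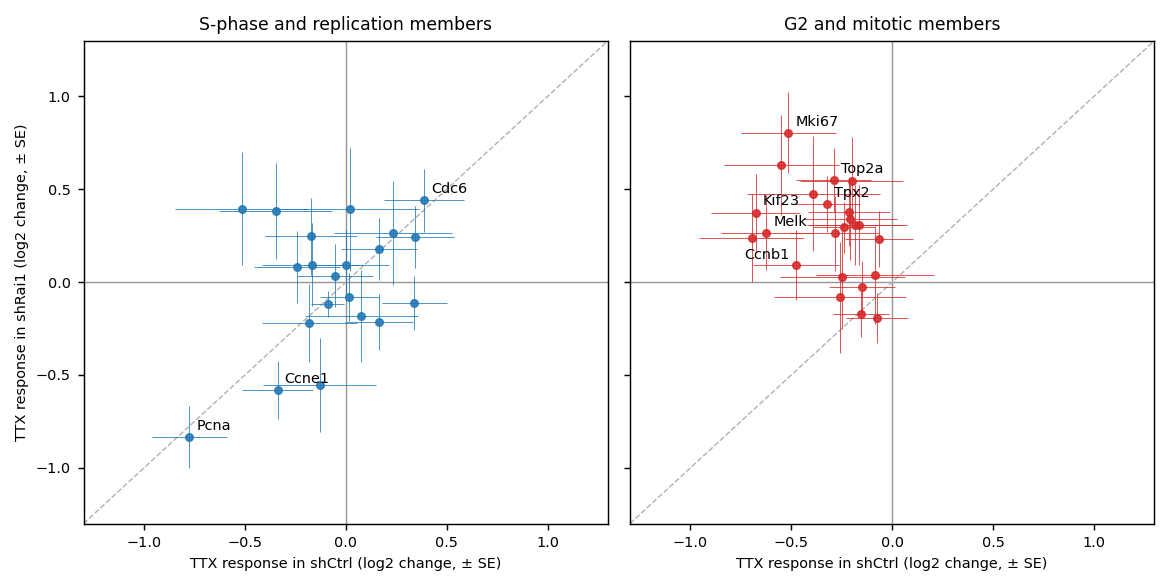
TTX response of each member in shCtrl (horizontal) and in shRai1 cultures (vertical), as log2 change with its SE from the deposited tables, for 21 S-phase (left) and 23 mitotic genes (right); the dashed line marks equal responses. All 23 mitotic genes lie left of 0 and 19 of them above 0, whereas the S-phase genes lie on both sides, with Pcna low in both arms.

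The difference between the arms was tested itself, by subtracting the shCtrl response from the shRai1 response. Of the 44 members, 1 passed, against 0.943% of all genes (0.587% higher). Mki67 had a difference of 1.32 (SE 0.321, Wald test, Benjamini-Hochberg adjusted p 0.0109), so that TTX moved it 2.49-fold more upward in shRai1 than in shCtrl. Kif23 stood just outside the threshold with a difference of 1.05 (SE 0.301, Wald adjusted p 0.0508), and it passed when fewer low genes were adjusted over. Tpx2 had 0.74 (SE 0.222, Wald adjusted p 0.0730) and Top2a 0.84 (SE 0.255, Wald adjusted p 0.0821). Ccnb1 had 0.94 (SE 0.350, Wald adjusted p 0.237) and Cdk1, the kinase that drives entry into mitosis, 0.55 (SE 0.299, Wald adjusted p 0.606), and neither passed. Of the mitotic genes 21 of 23 had a difference above 0 with a median of 0.55, against 49.7% and -0.0015 over all genes, and 11 of 23 had an unadjusted p under 0.05, all higher, against 9.05% of all genes. For S-phase genes the median difference was 0.01, with 11 of 21 above 0, and 2 had an unadjusted p under 0.05: E2f8, a repressor of E2F targets, with 0.91 and Mcm2, a subunit of the MCM helicase, with -0.45. Averaged over the arms, 3 of 44 members passed under TTX by the Wald test, all of them S-phase genes (Pcna, Ccne1 and Cdc6), against 33.1% of all genes (15.5% higher and 17.5% lower). Of the mitotic genes 0 of 23 passed, and 0 of 23 had an unadjusted p under 0.05, against 39.5% of all genes.

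In the knockdown with vehicle 4 mitotic genes fell and no S-phase gene was called. In shRai1 against shCtrl with vehicle, 20 of 23 mitotic genes were below 0 (median -0.42), where 51.6% of all genes were, and the 21 S-phase genes were spread about 0 (median -0.01, 11 below). On pooled levels, 4 of 23 mitotic genes (Top2a, Kif23, Tpx2 and Melk) were below their shCtrl vehicle FPKM in all 3 shRai1 columns and 5 above it in all 3, with the treatment of each column uncertain. The summed mitotic FPKM, most of it from Ube2c, Birc5 and Prc1, was 152.8 in shCtrl vehicle and between 158.0 and 180.3 over these columns. This comparison uses the same shCtrl and shRai1 vehicle libraries as the TTX responses, so its sign is not independent of theirs. In the authors' deposited table (DESeq2) 4 of the 43 members with an adjusted p passed, all mitotic and all lower, against 0.857% of all genes (0.73% lower). Gins2, a subunit of the replicative helicase with the lowest count of the members, had none.

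Mki67 fell by 0.96 in the authors' deposited table for the knockdown in vehicle (SE 0.239, DESeq2 adjusted p 0.0182), to 0.515 of the shCtrl value. Kif23 fell by 0.83 in that deposited table (SE 0.221, adjusted p 0.0315), to 0.563. Top2a fell by 0.72 in the authors' deposited table (SE 0.191, adjusted p 0.0295), to 0.606, and Tpx2 fell by 0.59 (SE 0.166, adjusted p 0.0453), to 0.663. All 4 calls lie between 0.01 and 0.05, and that of Tpx2 was lost when every gene with a p-value was adjusted over (0.0674). Ccnb1 (-0.53, adjusted p 0.420) and Cdk1 (-0.50, adjusted p 0.356) did not pass in the authors' deposited table. At an unadjusted p under 0.05 stood 12 of 23 mitotic genes, all lower, and 0 of 21 S-phase genes, against 7.75% of all genes. The further 8 were Ccna2, cyclin A2, with the widest change of these (-0.82), Bub1b of the spindle checkpoint (-0.67), Ccnb1, Foxm1, the transcription factor of the mitotic wave (-0.51), Cdk1, Melk, Kif11, the kinesin that pushes spindle poles apart (-0.42), and Nusap1, a binder of spindle microtubules (-0.42), as the authors' deposited table gives them.

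The targeted gene gave no check of the arms. Rai1 nascent RNA changed by 0.16 in shRai1 against shCtrl with vehicle in the authors' deposited table (SE 0.073, DESeq2 adjusted p 0.357), and an shRNA acts on finished transcripts, which a short label does not measure. The treatments could be checked in both arms on Arc, a gene that neurons transcribe when they are active, chosen here for that role. By the authors' deposited tables (DESeq2) Arc fell under TTX, with -2.53 in shCtrl and -2.00 in shRai1, and rose under BIC by 0.78 (adjusted p 0.00677) and by 1.41 (adjusted p 9.99e-11), as the names of the comparisons have it. Fos, Npas4, Nr4a1 and Bdnf also fell under TTX in both arms there. Under BIC in shCtrl Bdnf rose by 1.41 (adjusted p 7.82e-20). Fos (0.42, adjusted p 0.210), Npas4 (0.54, adjusted p 0.0907) and Nr4a1 (-0.14, adjusted p 0.748) did not pass there. In shRai1 Fos, Npas4 and Bdnf rose under BIC and Nr4a1 did not pass (0.49, adjusted p 0.0688), so the BIC check was less even than the TTX check.

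With TTX or BIC present the knockdown called no member. In TTX 0 of 44 members passed in the authors' deposited table (DESeq2), against 0.0283% of all genes, and 2 had an unadjusted p under 0.05 (3.3% of all genes), Melk with 0.44 and Mcm2 with -0.35. The mitotic median was 0.18, with 20 of 23 above 0, where 45.7% of all genes were. In BIC 0 of 44 passed in the authors' deposited table (DESeq2), against 0.00944% of all genes, and 6 had an unadjusted p under 0.05 (2.93% of all genes), which were Top2a, Kif23, Tpx2, Nusap1, Cenpe, the kinetochore kinesin, and Uhrf1, which keeps DNA methylation through replication, all below 0. The mitotic median in BIC was -0.25, with 18 of 23 below 0, where 47.1% of all genes were. Mki67 had 0.36 in TTX (SE 0.214) and -0.41 in BIC (SE 0.236), neither of which passed in the authors' deposited tables. Averaged over the 3 treatments 0 of 44 members passed the Wald test, against 0.00548% of all genes, and 10 had an unadjusted p under 0.05 (4.12% of all genes), of which 8 were mitotic and lower.

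Set against shCtrl vehicle, the median mitotic gene therefore stood at -0.25 in shCtrl TTX, 0.01 in shCtrl BIC, -0.42 in shRai1 vehicle, -0.15 in shRai1 TTX and -0.23 in shRai1 BIC, in log2 units. The shCtrl vehicle group was the highest of the 6 for 9 mitotic genes and shCtrl BIC for another 9, and shRai1 vehicle was the lowest for 10. These 2 highest groups are the ones with 2 libraries. For Mki67 the places were -0.51 in shCtrl TTX, -0.13 in shCtrl BIC, -0.96 in shRai1 vehicle, -0.15 in shRai1 TTX and -0.54 in shRai1 BIC. Among the 21 S-phase genes shRai1 BIC was the highest group for 9 and shRai1 TTX the lowest for 6, with medians from -0.08 in shRai1 TTX to 0.15 in shRai1 BIC. Whether the order differs between the lists was not tested.

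**Figure D3:**
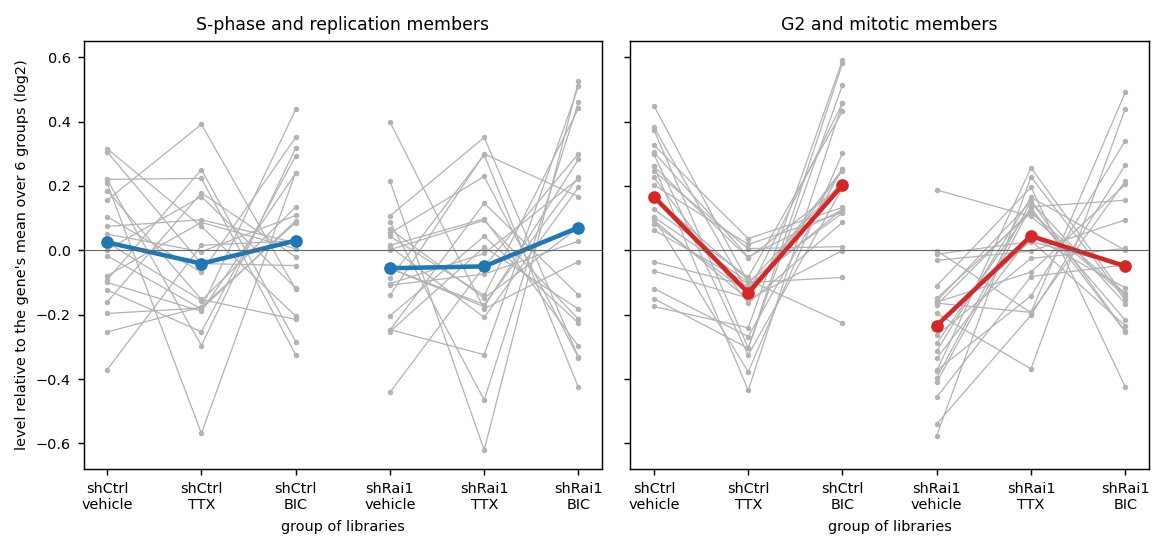
Log2 level of each member (grey lines) in the 6 groups, relative to that gene's own mean over the groups and computed from the deposited log2 changes; coloured points are the median over 21 S-phase (left) and 23 mitotic genes (right), and no error is drawn. The mitotic median is lowest in shRai1 vehicle and low in shCtrl TTX, and the S-phase median stays near 0 in all 6 groups.

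Under BIC 2 mitotic genes, Cenpf and Prc1, and 2 S-phase genes, Rrm1 and Tyms, rose in both arms. In the authors' deposited table for shCtrl (DESeq2), 4 of 44 members passed, all higher, against 34.4% of all genes (17.4% higher). In shRai1 9 of 44 passed in the authors' deposited table, 7 of them higher, against 42.5% of all genes (21.3% higher). Both shares lie below the background. The 4 called in shCtrl, Cenpf, Prc1, Rrm1 and Tyms, were all among the 9 called in shRai1, 4 of 4 and 4 of 9. Of all genes called in shCtrl 90.4% were also called the same way in shRai1, so the share of 4 of 4 is near the background. Of all genes called in shRai1 70% were also called the same way in shCtrl, and the share of 4 of 9 is lower than that.

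Cenpf, a large protein of the kinetochore, stood at 6.33 FPKM in vehicle (4.78 to 7.88) and 11.2 in BIC (8.66 to 13.8) in shCtrl, with bounds that do not overlap. By the authors' deposited tables Cenpf rose by 0.73 in shCtrl (SE 0.148, DESeq2 adjusted p 6.20e-06) and by 0.64 in shRai1 (SE 0.120, adjusted p 6.22e-07). Prc1, which bundles the microtubules of the central spindle, stood at 14.3 FPKM in vehicle (10.5 to 18.2) and 21.8 in BIC (16.4 to 27.3), with bounds that overlap. Prc1 by the authors' deposited tables rose by 0.77 in shCtrl (SE 0.177, adjusted p 9.82e-05) and by 0.71 in shRai1 (SE 0.147, adjusted p 6.62e-06). Ccnb2, cyclin B2, rose by 0.65 in the authors' deposited table for shRai1 (SE 0.140, adjusted p 1.52e-05), where it had 0.37 in shCtrl (adjusted p 0.0856). Bub1b rose by 0.80 in shRai1 in the authors' deposited table (SE 0.216, adjusted p 0.000747), and Foxm1 by 0.57 (adjusted p 0.0400). Neither differed between the arms by the Wald test, with a difference of 0.50 for Bub1b (SE 0.327) and 0.55 for Foxm1 (SE 0.359). Averaged over the arms, 4 of 23 mitotic genes passed under BIC by the Wald test, all higher (22.4% of all genes). They were Cenpf, Prc1, Ccnb2 with 0.51 (Wald adjusted p 1.83e-05) and Bub1b with 0.55 (Wald adjusted p 0.00203).

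The mitotic markers in common use did not pass under BIC. Mki67 had -0.13 in shCtrl (SE 0.251) and 0.42 in shRai1 (SE 0.225), Top2a -0.19 and 0.14, Cdk1 -0.06 and 0.00, and Ccnb1 0.19 and 0.27 in the authors' deposited tables. The mitotic median was 0.01 in shCtrl and 0.22 in shRai1 over all 23 genes, and 0.15 and 0.22 over the 17 with a mean count of at least 50. No member had a difference in the BIC response between the arms that passed the Wald test, against 0.0219% of all genes, and 0 of 44 had an unadjusted p under 0.05 (3.03% of all genes).

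The S-phase genes that changed did so in both directions. The smallest adjusted p under TTX was that of Pcna, the sliding clamp of DNA polymerase, which lies on chromosome 2 from 132075022 to 132078916 (mm9). Its pooled level in shCtrl was 16.8 FPKM with vehicle (11.1 to 22.5), 9.74 FPKM with TTX (5.76 to 13.7) and 15.8 FPKM with BIC (10.4 to 21.1), so the TTX value was the low one, with bounds that overlap those of vehicle. In the authors' deposited tables Pcna fell by 0.78 under TTX in shCtrl (SE 0.186, DESeq2 adjusted p 0.000260) and by 0.84 in shRai1 (SE 0.166, adjusted p 5.79e-06). Averaged over the arms it fell by 0.81 (SE 0.125, Wald adjusted p 1.31e-09), to 0.572 of the vehicle level. The arms differed by -0.06 for Pcna (SE 0.249), and it was the only member called under TTX in both arms, 1 of 4 calls in shCtrl and 1 of 6 in shRai1, where the shares over all genes were 68.3% and 59.7%.

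Of the genes that license origins, Cdc6, which loads the MCM helicase, rose by 0.44 under TTX in shRai1 in the authors' deposited table (SE 0.168, DESeq2 adjusted p 0.0325) and had 0.39 in shCtrl (adjusted p 0.143). Its average over the arms rose by 0.41 (SE 0.130, Wald adjusted p 0.00607). Cdt1, the partner of Cdc6 in loading, had -0.13 and -0.55 under TTX in the authors' deposited tables and did not pass. Ccne1, cyclin E1, which drives the step from G1 into S, stood at 5.82 FPKM in shCtrl with vehicle (3.44 to 8.20), 4.18 FPKM with TTX (2.23 to 6.13) and 2.70 FPKM with BIC (1.18 to 4.23). As given by the authors' deposited tables, it fell in shRai1 by 0.58 under TTX (SE 0.156, adjusted p 0.00126) and by 0.43 under BIC (SE 0.157, adjusted p 0.0152), with -0.34 (SE 0.177) and -0.40 (SE 0.196) in shCtrl. Averaged over the arms, it fell under TTX by 0.46 (SE 0.118, Wald adjusted p 0.000544) and under BIC by 0.42 (SE 0.126, Wald adjusted p 0.00256). So Ccne1 was below vehicle with either drug, one of which lowers and the other raises network activity.

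The 2 genes of deoxynucleotide supply called under BIC both rose in both arms. Rrm1, the large subunit of ribonucleotide reductase, stood at 3.43 FPKM in shCtrl vehicle (2.15 to 4.71) and 5.11 in BIC (3.45 to 6.78), and by the authors' deposited tables (DESeq2) it rose by 0.63 in shCtrl (SE 0.156, adjusted p 0.000277) and by 0.76 in shRai1 (SE 0.126, adjusted p 1.31e-08). Tyms stood at 163 FPKM in vehicle (125 to 201) and 224 in BIC (170 to 278), and rose by 0.34 in both arms in the authors' deposited tables (SE 0.091 and 0.071, adjusted p 0.000938 and 9.64e-06). Rrm2, the small subunit that cells make around S phase, did not pass under BIC, where the authors' deposited tables give -0.35 in shCtrl (SE 0.301) and -0.34 in shRai1 (SE 0.271), so the 2 subunits had opposite signs.

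Some S-phase genes fell under BIC. Mcm7, a subunit of the MCM helicase, fell by 0.44 in shRai1 in the authors' deposited table (DESeq2 adjusted p 0.0311). In the BIC average over the arms 11 of 44 members passed, against 46% of all genes (22.4% higher and 23.6% lower), and among the S-phase genes 3 were higher (Rrm1, Tyms and Cdc6) and 4 lower (Ccne1, Cdc45, Mcm4 and Mcm7). Cdc45, a part of the active helicase, fell by 0.42 (Wald adjusted p 0.0187), Mcm4 by 0.38 (Wald adjusted p 0.0317) and Mcm7 by 0.32 (Wald adjusted p 0.0497). The calls of Mcm4 and Mcm7 were lost when changes were centred on the median of well-counted genes, and Cdt1 and Nusap1 were then called in that average. Mcm2 and Mcm5, the subunits used as proliferation markers, had 0.21 and 0.10 in that average, and E2f1, the first of the E2F activators, had 0.04, none of which passed the Wald test.

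**Figure D4:**
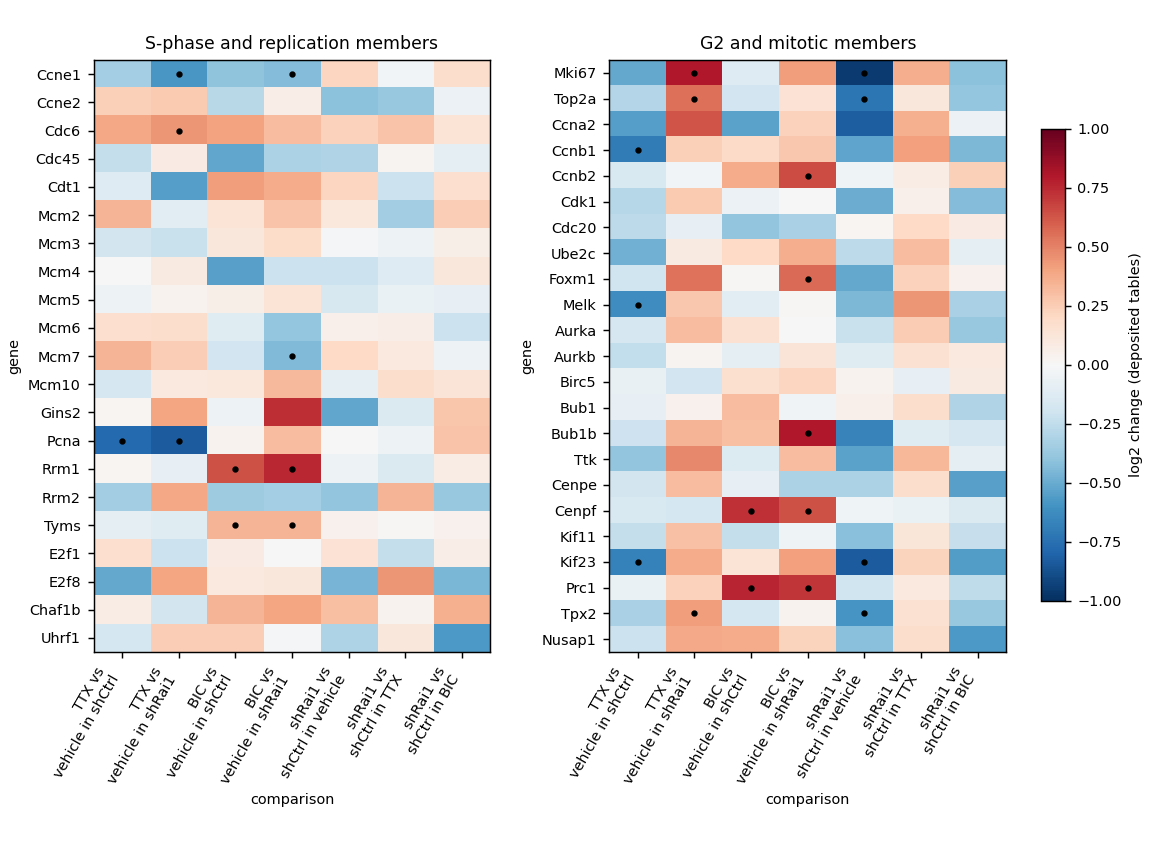
Log2 change of each member (rows) in the 7 deposited comparisons (columns), for 21 S-phase (left) and 23 mitotic genes (right), with red for higher and blue for lower; black dots mark an adjusted p under 0.05 in the deposited DESeq2 table. The mitotic columns for TTX in shCtrl and for the knockdown in vehicle are mostly blue and that for TTX in shRai1 mostly red, and the S-phase columns are mixed.

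Further genes of the cell cycle were taken from lists of genes that are not members. These lists were chosen with earlier results known and measured in the same libraries, so they are no independent check of the members. Of 34 further mitotic genes, 27 were below 0 under TTX in shCtrl (48.7% of all genes), 29 above 0 under TTX in shRai1 (48.7% of all genes), and 33 below 0 in the knockdown with vehicle (median -0.35; 51.6% of all genes). In the authors' deposited tables (DESeq2) 5 of the 34 fell under TTX in shCtrl, near the 14.9% of all genes, 8 rose and 1 fell in shRai1 (13.7% and 16.8% of all genes), and 1 fell in the knockdown (0.73% of all genes). That one was Ect2, which acts in cytokinesis, with -0.75 in the authors' deposited table (SE 0.210, adjusted p 0.0447). The TTX response differed between the arms for 3 of the 34 by the Wald test, all more upward in shRai1 (0.587% of all genes), with a list median of 0.57. They were Ect2 with 1.19 (SE 0.281, adjusted p 0.00845), Kif2c, a kinesin that takes microtubules apart at centromeres, with 1.51 (SE 0.370, adjusted p 0.0111), and Ncaph, a condensin subunit, with 1.12 (SE 0.306, adjusted p 0.0359).

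Under BIC 2 of the 34 further mitotic genes rose and 0 fell in shCtrl (17.4% and 17% of all genes) in the authors' deposited table (DESeq2). In shRai1 5 rose and 0 fell (21.3% and 21.3% of all genes). The list median was -0.03 in shCtrl and 0.16 in shRai1, and -0.13 and 0.08 over the 18 with a mean count of at least 50. One of these genes moved with activity in both arms. Cenpa, the histone H3 variant of the centromere, by the authors' deposited tables fell under TTX by 1.49 in shCtrl (SE 0.183, DESeq2 adjusted p 1.58e-14) and by 0.78 in shRai1 (SE 0.160, adjusted p 1.15e-05). Under BIC the authors' deposited tables have Cenpa rising by 0.99 in shCtrl (SE 0.178, adjusted p 2.17e-07) and by 1.63 in shRai1 (SE 0.144, adjusted p 4.37e-28).

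Of 30 further S-phase genes, 3 rose and 3 fell under TTX in shCtrl and 3 rose and 1 fell under TTX in shRai1 in the authors' deposited tables (DESeq2), below the 26.7% and 30.5% of all genes called. In the deposited knockdown with vehicle 0 passed (0.857% of all genes), and 3 had an unadjusted p under 0.05 (7.75% of all genes), all lower. By sign, 23 of 30 were above 0 under TTX in shRai1 (median 0.18) and 23 of 30 below 0 in the knockdown with vehicle (median -0.15, and -0.07 over the 17 with a mean count of at least 50), so these S-phase genes leaned to the same side as the mitotic ones there, and whether the lists differ was not tested. Their median TTX difference between the arms was 0.16, with 18 of 30 above 0, and 0.02 with 9 of 17 above 0 among the better-counted genes. By the Wald test 0 passed (0.943% of all genes), with 4 at an unadjusted p under 0.05 (9.05% of all genes). Under BIC 3 of the 30 rose and 1 fell in shCtrl (34.4% of all genes called), and 5 rose and 3 fell in shRai1 (42.5%), with changes from -0.65 to 1.14 and from -0.79 to 1.42. Pola1, the catalytic subunit of the polymerase that primes DNA synthesis, by the authors' deposited tables rose under BIC by 0.88 in shCtrl (SE 0.128, adjusted p 1.05e-10) and by 1.00 in shRai1 (SE 0.101, adjusted p 1.27e-21). Dbf4, the activator of the origin-firing kinase Cdc7, rose there by 1.14 (SE 0.223) and 1.42 (SE 0.185).

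Of 28 regulators of G1, which neurons use too, 1 rose and 7 fell under TTX in shCtrl (26.7% of all genes called) and 6 rose and 10 fell in shRai1 (30.5% of all genes called) in the authors' deposited tables (DESeq2). In the deposited knockdown with vehicle 0 passed (0.857% of all genes), and 5 had an unadjusted p under 0.05 (7.75% of all genes). Under BIC 7 rose and 5 fell in shCtrl (34.4% of all genes called) and 7 rose and 6 fell in shRai1 (42.5%) in the authors' deposited tables. Mycn, a MYC family transcription factor, fell under TTX by 1.11 in shCtrl (SE 0.131) and by 1.37 in shRai1 (SE 0.116) in the authors' deposited tables. E2f5, an E2F that acts with repressors, by the authors' deposited tables rose under BIC by 1.19 in shCtrl and by 1.25 in shRai1.

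Markers of cell types that can divide were read beside the mitotic genes. Of 14 markers of oligodendrocyte precursors, 12 were below 0 under TTX in shCtrl, 10 above 0 under TTX in shRai1 and 11 below 0 in the knockdown with vehicle, and 11 were below 0 under BIC in shCtrl (median -0.24). By the authors' deposited tables, 1 rose and 7 fell under TTX in shCtrl (11.8% and 14.9% of all genes), 6 rose and 1 fell under TTX in shRai1 (13.7% and 16.8%) and 4 fell in the knockdown with vehicle (0.73%). With BIC, 1 rose and 3 fell in shCtrl (17.4% and 17%), and 1 rose and 2 fell in shRai1 (21.3% and 21.3%). The TTX response of 6 differed between the arms by the Wald test, all more upward in shRai1 (0.587% of all genes; list median 0.61). Pdgfra, the receptor that defines these cells and drives their division, fell by 1.37 in the knockdown with vehicle in the authors' deposited table (SE 0.132, DESeq2 adjusted p 6.02e-21). Its TTX response was -0.76 in shCtrl and 1.10 in shRai1, a difference of 1.86 (SE 0.175, Wald adjusted p 2.61e-22). Set against shCtrl vehicle, Pdgfra stood at -0.76 in shCtrl TTX, -0.27 in shRai1 TTX, -0.26 in shCtrl BIC and -1.16 in shRai1 BIC. In the knockdown with TTX 12 of the 14 markers were above 0 and 1 was called, higher (0.0283% of all genes called). In the knockdown with BIC 11 were below 0 and 1 was called, lower (0.00944% of all genes called). The summed pooled FPKM of the list in shCtrl was 196 in vehicle, 152 in TTX and 172 in BIC, and lay between 143 and 167 over the shRai1 columns.

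Of 12 astrocyte markers, 10 were below 0 under TTX in shCtrl, 7 above 0 under TTX in shRai1 and 11 below 0 in the knockdown with vehicle. By the authors' deposited tables, 5 fell under TTX in shCtrl (14.9% of all genes), 2 rose and 1 fell in shRai1 (30.5% called in either direction) and 2 fell in the knockdown with vehicle (0.73%), and the TTX response of 1 differed between the arms by the Wald test (0.943%). Their summed FPKM in shCtrl was 545 in vehicle, 450 in TTX and 423 in BIC. Of 8 progenitor markers, of which 7 had an adjusted p under TTX, 5 fell under TTX in shCtrl (14.9% of all genes) and 3 fell and 0 rose in shRai1 (16.8% and 13.7%, median -0.19), where most mitotic genes were above 0, and 1 fell in the knockdown with vehicle (0.73%) in the authors' deposited tables, with summed FPKM of 301, 207 and 261. The 10 microglia markers summed to between 22.1 and 31.9 FPKM, with Tyrobp and Fcrls listed at 0 in shCtrl vehicle, the 11 vascular markers summed to between 4.59 and 7.18, and only 2 and 4 of them had an adjusted p in the knockdown with vehicle, too few to read a call from. With BIC in shCtrl, 1 astrocyte marker rose and 4 fell (17.4% and 17% of all genes) in the authors' deposited tables. Of the progenitor markers 0 rose and 3 fell there. With BIC in shRai1, 2 rose and 2 fell in each of these 2 lists (21.3% and 21.3% of all genes). Under BIC, in the authors' deposited tables, 2 of the 3 microglia markers with an adjusted p rose in shCtrl (17.4% of all genes) and 1 of 5 in shRai1 (21.3%). Of the 8 vascular markers with an adjusted p, 1 rose in shCtrl (17.4% of all genes) and 2 fell in shRai1 (21.3%). The 11 neuron markers, of cells that do not divide, also leaned down in the knockdown with vehicle, where 10 of 11 were below 0 (median -0.09). In the authors' deposited table (DESeq2) 5 of them had an unadjusted p under 0.05 (7.75% of all genes), 4 of these lower, and 1 was called, which was higher (0.126% of all genes). Under TTX, by the authors' deposited tables, 1 neuron marker rose and 5 fell in shCtrl (11.8% and 14.9% of all genes), and 0 rose and 4 fell in shRai1 (13.7% and 16.8%). Under BIC 7 rose and 3 fell in shCtrl (17.4% and 17% of all genes), and 7 rose and 3 fell in shRai1 (21.3% and 21.3%). The summed FPKM of the neuron markers in shCtrl was 736 in vehicle, 637 in TTX and 981 in BIC. Whether a change in the number of dividing cells takes part in the changes of the mitotic genes was not tested.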

How the data were processed

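Nascent RNA from 16 Bru-seq libraries in 6 groups was analysed, and 12 ChIP samples were not analysed here. Reads were 50 bp. For the authors' steps, the submitters' processing notes name TopHat2 2.1.0, Bowtie2 2.2.6, DESeq2 and the mm9 build. The authors deposited 7 comparison tables, which per the file headers hold, for every gene, a mean normalized count (a signal averaged over libraries), a log2 change with SE, a Wald score and p-values before and after adjustment. The fit may draw the log2 changes of genes with low counts towards 0, which was not tested here, so folds of low genes may be understated. Over all named genes the changes of the vehicle knockdown lay only between -1.37 and 1.10, though mean counts of tested genes went down to 0.0518. The deposited tables come from 1 fit, since the log2 changes close to within 1e-09. A separate deposited table gives 1 pooled FPKM with bounds per condition. Its 3 knockdown columns were used only as a range. Over 18241 genes the change from the vehicle to the TTX column had a correlation of -0.47 with the TTX response deposited for shRai1 (0.50 in shCtrl), and the mean over 5 contrasts was 0.01 as named. It was highest, 0.43, with the BIC column read as vehicle, the vehicle column as TTX and the TTX column as BIC, an order that was not adopted. No value per library was used. Depth per library is unknown, and the only measure of replicate spread is the deposited SE.

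Gene names are absent from the vehicle knockdown table. They were assigned by their mean count where it is unique, which named 20107 and left 1085, and all 44 members were named. The 5 combined contrasts (TTX and BIC differences between the arms, both responses averaged over the arms and the knockdown averaged over treatments) were computed here from contrasts that share no library, with the root of summed squared SEs, a two-sided Wald test and Benjamini-Hochberg adjustment over the 18241 named genes whose mean FPKM reached 0.1. A call is an adjusted p under 0.05. These steps were run on simulated data. The simulated noise was drawn from the same SEs that the test used, so that run checked the arithmetic and not the SEs. Python 3.11.15, pandas 2.3.3 and scipy 1.17.1 were used.

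The members and lists were chosen with earlier results of these data known. Full values are given for at most 6 called members per contrast, by smallest adjusted p, for 9 genes named throughout (Mki67, Top2a, Cdk1, Ccnb1, Pcna, Mcm2, Mcm5, Ccne1 and E2f1) and for the extremes of FPKM. Outside the members they are given for Rai1, Pdgfra and at most 4 called genes per list and contrast. Alternatives were other thresholds, other sets of genes adjusted over and centring.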

Additional observations from a re-analysis of the deposited data

Results flagged for a closer look

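The TTX response differed between the arms (shRai1 minus shCtrl) by the Wald test for 5 of the genes named above. Among the members this was Mki67, with a log2 difference of 1.32 (SE 0.321, Benjamini-Hochberg adjusted p 0.0109). Among the other mitotic genes the differences were 1.51 for Kif2c, 1.19 for Ect2 and 1.12 for Ncaph. Pdgfra, the precursor marker, had 1.86. All 5 were more upward in shRai1. Outlying libraries could not be looked for, since no value per library was used.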

How the results depend on the processing

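The counts of members called were recomputed under 6 alternatives for each of 12 contrasts, and 62 of 72 counts stayed within 1.5 times the main one, of which 24 are counts of 0 that stayed at 0 and say nothing about stability. Over genes with a mean count of at least 50, the S-phase median under TTX in shRai1 turned from 0.08 to -0.02. The S-phase median also turned from -0.01 to 0.03 in the knockdown in vehicle and from 0.01 to -0.03 in the TTX difference between the arms. Over the same genes the mitotic median under BIC in shCtrl went from 0.01 to 0.15, that of the knockdown in BIC from -0.25 to -0.38 and that of the averaged knockdown from -0.12 to -0.19. There was no replicate spread of a median to set these changes against. At an adjusted p of 0.01 the count went from 4 to 1 for TTX in shCtrl, from 4 to 0 for the knockdown in vehicle, from 1 to 0 for the TTX difference between the arms and from 11 to 7 for the BIC average. At 0.1 it went from 6 to 10 for TTX in shRai1, from 4 to 7 for BIC in shCtrl and from 1 to 4 for the TTX difference (with Top2a, Kif23 and Tpx2). The TTX difference had 2 calls, Mki67 and Kif23, with adjustment over genes with a mean count of at least 10, over genes of at least 0.5 FPKM, and after centring. The adjusted p of Mki67 in that difference ranged from 0.00924 to 0.0120. Of 42 calls, 25 were kept at 0.01 and 17 lost, 3 were lost in at least 1 of the 4 alternatives at 0.05 (Tpx2 in the knockdown in vehicle, Mcm4 and Mcm7 in the BIC average) and 0 reversed. Melk has a mean under 0.5 FPKM and so no value under that filter. Thresholds and tested sets change the counts by their construction. No paired analysis was possible because the values are summaries over libraries without replicate numbers, although the library titles give them. For the same reason no library could be left out. The unlike replicates of shCtrl vehicle and shCtrl BIC were therefore not adjusted for here. The shCtrl vehicle and shCtrl BIC groups rest on 2 libraries each, and the median count of 73.8 over the members limits the precision of single genes.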
